A study of Sus scrofa with 8 samples.

Results

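Membrane vesicles carry proteins and lipids between the endoplasmic reticulum, the Golgi, endosomes and the cell surface, and 50 genes of this machinery are described here in pig skeletal muscle. They were chosen by a rule on names, with earlier results of these data known. The rule takes every gene whose single symbol in the array's annotation begins with RAB, STX, SNX, ARF, VPS or SEC and a digit. It also takes symbols that begin with VAMP, SCAMP or TMED, and the COPI coat genes COPA, COPB1, COPB2, COPE, COPG1 and COPZ1. COPB2 has no spot of its own name on the array. The annotation names 2922 genes in all, and the 50 genes have 102 of the 9984 spots, with 2 spots each except for SNX21, which has 4. The prefixes fix no function: RAB5IF and RAB11FIP3 are not Rab GTPases, and SEC11A is a subunit of the signal peptidase.

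The study asked how diets that differ in energy alter skeletal muscle of the pig. RNA of animals on a high energy diet and of animals on a low energy diet was labelled with the dyes Cy3 and Cy5 and hybridised in competition on 8 arrays, each with 1 sample of either diet. The arrays form 4 couples of samples, each hybridised with high energy RNA in dye 5 and again in dye 3: couple 1 pairs low energy 49 with high energy 40, couple 2 pairs 61 with 41, couple 3 pairs 142 with the same 40 again, and couple 4 pairs be with ae. Both arrays of a dye swap carry the same 2 RNAs, so their mean counts once, which leaves 4 couples, of which couples 1 and 3 have a high energy sample in common. The sources used here do not give breed, age, sex, the muscle, what the diets contained, or whether a sample is 1 animal or a pool. A p-value therefore speaks only of these 4 couples, and limma draws the spread of a gene towards that of all features. Low energy samples served as the reference.

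A value is the log2 ratio of both channels of an array, taken as high over low energy, so that 1 is a doubling and a value below 0 is less signal in high energy muscle. The sources do not state this direction outright: the labels put low energy in channel 1 and high energy in channel 2 of every array, which makes it the likely one. Fitted means are therefore followed by a turned value, computed after reversing the sign on the 4 dye 3 arrays. If the deposited values were instead one dye over the other, the turned value would be the diet ratio, and otherwise it is the difference that follows the dye. A ratio gives no level of expression, and fewer cells of a type and less RNA per cell cannot be told apart in whole muscle. The symbols are those of the platform annotation, and close relatives such as RAB6A and RAB6B, RAB11A and RAB11B or VPS26A and VPS26B can bind each other's cDNA, so their values are uncertain as single genes.

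As background, small GTPases of the Rab and Arf families mark a membrane and recruit coats, motors and tethers to it. COPI coats return vesicles from the Golgi to the endoplasmic reticulum, and COPII coats run the other way. SNARE proteins, among them the VAMPs on vesicles and the syntaxins on targets, zip together to fuse membranes, while sorting nexins and VPS proteins sort cargo in endosomes and lysosomes. In muscle, insulin and contraction use this machinery to bring the glucose transporter GLUT4 to the fibre surface, with VAMP2 as the SNARE of those storage vesicles.

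Of the 50 genes, 43 were measured in both dye orientations in at least 3 couples and could be tested. None of them passed a Benjamini-Hochberg threshold of 0.05 in limma's test over 5025 features, of which 0% passed. At an unadjusted p under 0.05 there were 2, VAMP2 and SCAMP2, both below 0, which is 4.65% of the 43. Over all features that share was 3.78%, and 2.41% for features below 0, so the count of 2 is near the background. It moved with single couples: it was 0 without couple 4, 1 without couple 3 (SCAMP2), 1 without couple 2 (ARF1 in their place) and 4 without couple 1 (VAMP2, SCAMP2, RAB13 and RAB2A). It was also 0 when couple 4 was taken from its dye 5 array alone, and 4 when all couples were counted as independent (VAMP2, SCAMP2, RAB13 and COPG1). Over all 5025 features the count moved too, from 190 to 122 without couple 4, 284 without couple 3, 107 without couple 2 and 254 without couple 1. Among features it was 177 with couple 4 from its dye 5 array alone and 310 with couples independent. Fitted means lay between -0.35 for VAMP2 and 0.31 for ARF1, with a median of -0.026 and a median size of 0.068, while over all features the median was -0.012 and the median size 0.090. There were 16 genes above 0 and 27 below, or 62.8% below 0 against 53.6% of all features. Turned, 17 were above 0 and 26 below, or 60.5% below 0 against 52.6% of features, with a median of -0.020.

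**Figure D1:**
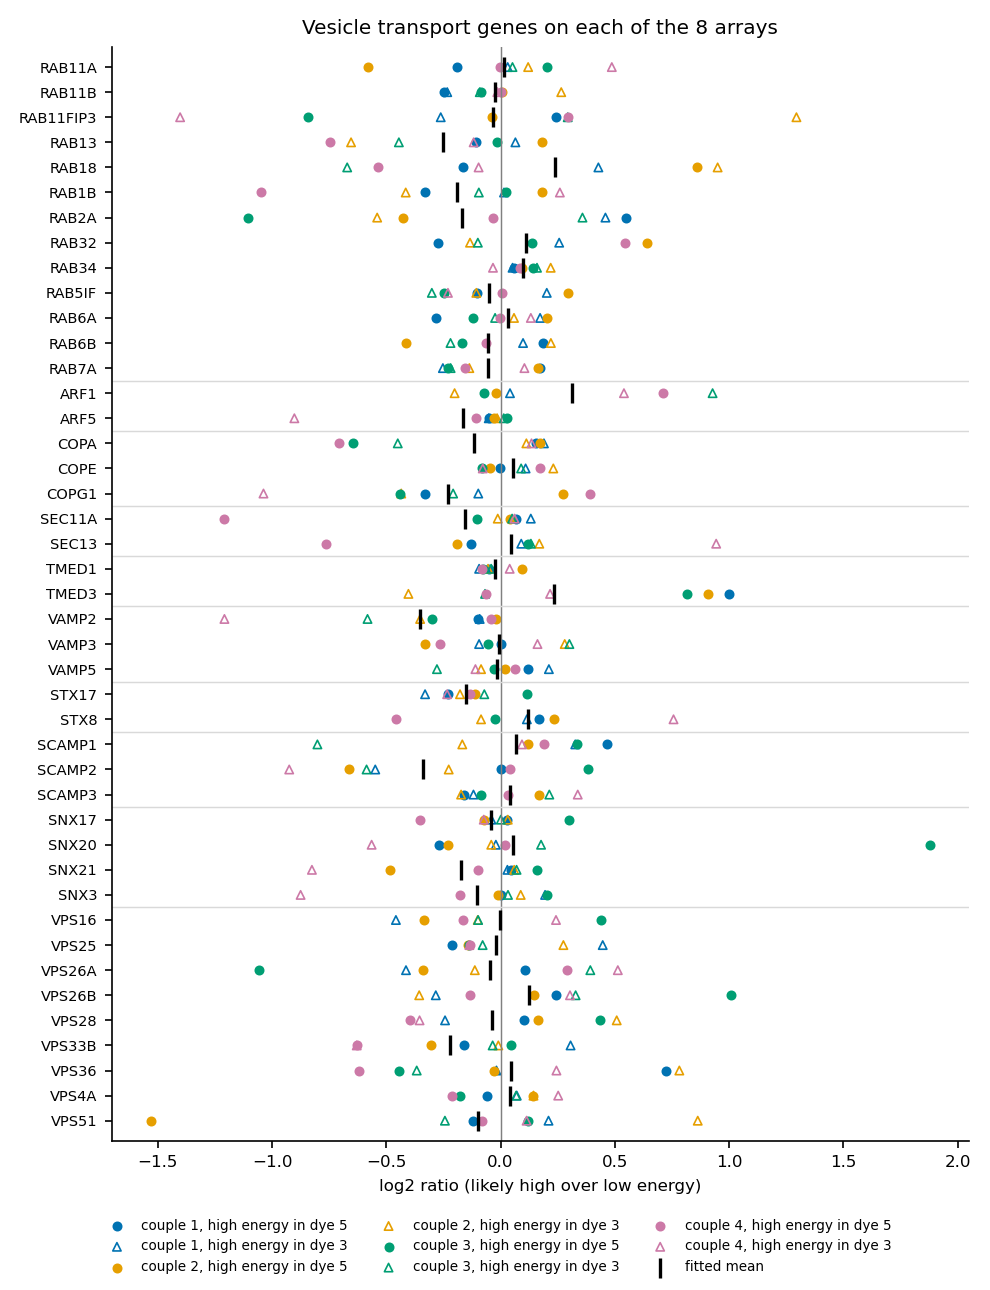
Log2 ratio (x axis, likely high over low energy) of the 43 tested genes (y axis, grouped by prefix) on each array, with a colour per couple, filled circles for high energy in dye 5, open triangles for high energy in dye 3 and a black bar for the fitted mean. Most values lie within 0.5 of 0, and the array values farthest out are 1.88 for SNX20 and -1.53 for VPS51, the latter from 1 spot.

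VAMP2, the vesicle SNARE of regulated secretion and of GLUT4 vesicles, had the lowest fitted mean. With high energy in dye 5 its log2 ratios were -0.099, -0.021, -0.30 and -0.043 in couples 1 to 4, and on the swapped arrays they were -0.091, -0.35, -0.58 and -1.21. All 8 arrays were thus below 0, though 3 of the 4 dye 5 values lay close to it, and the lowest value stood on the dye 3 array of couple 4. Its mean was -0.35 ± 0.14 (SE, 4 couples; turned 0.25), a fold of 1.28 lower with high energy, and its adjusted p was 0.996 in limma. Its 2 spots differed. The first spot read -0.38, -0.35, -0.46 and -0.24 and -0.13, -0.28, -0.39 and -1.21 in the same order, below 0 on every array, while the other read 0.18, 0.31, -0.15 and 0.15 with high energy in dye 5, above 0 in 3 of 4 couples, and -0.056, -0.43 and -0.77 in couples 1 to 3 with the dyes swapped. The lowest value, -1.21, thus came from the first spot alone. From the dye 5 array of couple 4 alone, VAMP2 had -0.18.

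VAMP2 was the only one of the 34 genes on all 8 arrays to lie below 0 on every array, or 2.94%, against 1.46% of all features on 8 arrays. None lay above 0 on all 8 arrays, against 0.797% of features. None had one sign on all dye 5 arrays and the other on all dye 3 arrays, against 0.687%. VAMP3, a SNARE of recycling endosomes, had a mean of -0.0074 ± 0.090 (turned -0.18) and couple values of -0.047, -0.024, 0.12 and -0.052, on both sides of 0. VAMP5, a VAMP known from muscle, had -0.014 ± 0.11 (turned 0.058) with couple values of 0.17, -0.032, -0.15 and -0.023. Its spots were brighter than those of the other VAMPs and its 95% interval ran from -0.29 to 0.26. All 3 VAMP means were thus below 0, but those of VAMP3 and VAMP5 were under their errors, and turned only that of VAMP3 was below 0.

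The 2 tested syntaxins had opposite signs. STX17, which helps autophagosomes fuse with lysosomes, had -0.23, -0.11, 0.12 and -0.13 with high energy in dye 5 and -0.33, -0.18, -0.071 and -0.23 with the dyes swapped. It was below 0 on 7 of 8 arrays, and the exception was the dye 5 array of couple 3. Its mean was -0.15 ± 0.11 (turned 0.053), with an unadjusted p of 0.21 and an adjusted p of 0.996 in limma. A limma fit of all 8 arrays gave it an unadjusted p under 0.05, but counted swapped arrays of the same RNAs almost as separate replicates. In that fit 353 of 5025 features had such a p, against 190 when swapped arrays were averaged. STX8, an endosomal SNARE, was measured in 3 couples at 0.14, 0.075 and 0.15, with a mean of 0.12 ± 0.093 (turned -0.14). Its swapped arrays lay far apart in couple 4, which had -0.46 with high energy in dye 5 and 0.76 with high energy in dye 3. STX7, the endosomal partner of STX8, was measured in both orientations in 2 couples, at 0.0088 and -0.17, and was not tested.

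SCAMP2 belongs to the secretory carrier membrane proteins, which travel between the Golgi, endosomes and the surface. With high energy in dye 5 it read 0, -0.67, 0.38 and 0.041, and with the dyes swapped -0.55, -0.23, -0.59 and -0.93. All 4 dye 3 arrays were below 0, whereas of the dye 5 arrays couple 2 was below 0, couples 3 and 4 above it and couple 1 exactly at 0, from 1 spot. The couple values of -0.27, -0.45, -0.10 and -0.44 were all below 0 and gave a mean of -0.34 ± 0.10 (turned 0.23; adjusted p = 0.996 in limma), a fold of 1.27 lower with high energy. Its spots had means of -0.36 and -0.32 over arrays, but a median gap of 0.43 on the same array. On the dye 3 arrays alone SCAMP2 had -0.57 and on the dye 5 arrays alone -0.11, and from the dye 5 array of couple 4 its mean was -0.20. Its relatives lay on the other side of 0: SCAMP1 had 0.068 ± 0.17 (turned 0.18) with couple values of 0.40, -0.025, -0.23 and 0.14, and SCAMP3 had 0.040 ± 0.10 (turned -0.029) with -0.14, -0.0025, 0.064 and 0.18. The differences between the SCAMPs were not tested.

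**Figure D2:**
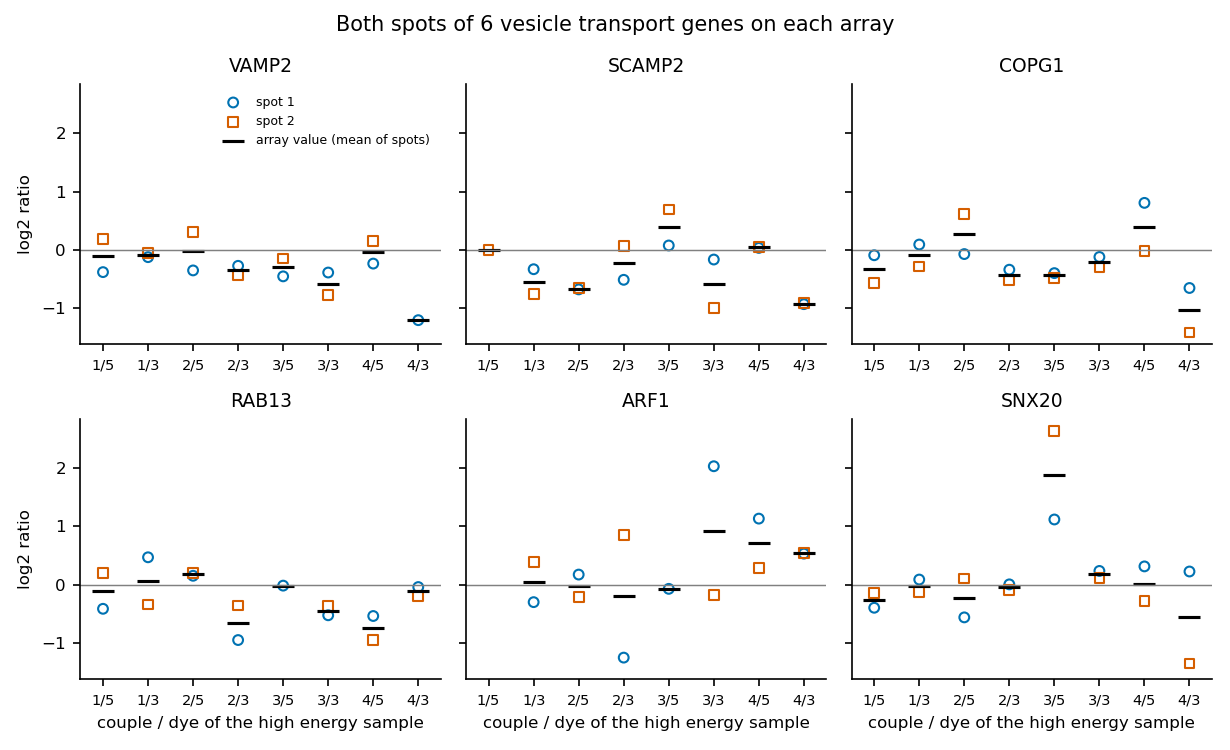
Log2 ratio (y axis) of the first spot (circles), the second spot (squares) and their mean (bars) on each array (x axis, couple and dye of the high energy sample) for VAMP2, SCAMP2, COPG1, RAB13, ARF1 and SNX20. The first spot of VAMP2 is below 0 on every array, while the spots of ARF1 lie far apart on the dye 3 arrays of couples 2 and 3.

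The COPI coat is assembled from a fixed set of subunits. The means of those tested lay on both sides of 0, but those of COPE and COPA were under their errors. Differences between the subunits were not tested. COPG1, the gamma subunit, read -0.33, 0.27, -0.44 and 0.39 with high energy in dye 5 and -0.098, -0.43, -0.21 and -1.04 with the dyes swapped. It was below 0 on 6 of 8 arrays and above 0 on the dye 5 arrays of couples 2 and 4. Its couple values of -0.21, -0.081, -0.32 and -0.32 gave -0.23 ± 0.093 (turned 0.27), so the part that followed the dye was larger than the mean, and from the dye 5 array of couple 4 alone the mean was -0.015. COPE, the epsilon subunit, lay near 0 throughout, with 0.053, 0.093, 0.0054 and 0.047 over couples, a mean of 0.054 ± 0.080 (turned -0.032) and a 95% interval from -0.15 to 0.25, or 0.90-fold to 1.19-fold. COPA, the alpha subunit, split between couples: values of 0.17, 0.14, -0.55 and -0.29 gave a mean of -0.12 ± 0.20 (turned -0.14), with both arrays of couples 1 and 2 above 0 and both of couple 3 below it. The delta subunit ARCN1, outside the naming rule, had couple values of -0.13, -0.32, -0.18 and -0.23, all below 0, and a mean of -0.23 ± 0.085 (turned -0.056; adjusted p = 0.996 in limma), close to that of COPG1. COPB1 was measured on 4 arrays and COPZ1 on 3, and neither was tested.

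The Arf GTPases recruit those coats. ARF1, the main Arf of the Golgi, had the highest mean of the 43 genes, 0.31 ± 0.17 in 3 couples (turned -0.11; adjusted p = 0.996 in limma). It read -0.019, -0.072 and 0.71 in couples 2 to 4 with high energy in dye 5 and 0.041, -0.20, 0.93 and 0.54 in couples 1 to 4 with the dyes swapped. Couples 3 and 4 were high at 0.43 and 0.63 and couple 2 was not, at -0.11. The 0.93 of couple 3 was the mean of a spot at 2.03 and one at -0.18. ARF5 had -0.16 ± 0.12 (turned 0.12), and -0.045 from the dye 5 array of couple 4 alone. The dye 3 array of that couple read -0.90, and its other 7 arrays lay between -0.11 and 0.027.

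Other early secretory genes also had turned values larger in size than their means. SEC13, which is part of the COPII coat and of the nuclear pore, read -0.13, -0.19, 0.12 and -0.76 with high energy in dye 5 and 0.090, 0.17, 0.13 and 0.94 with the dyes swapped, so its mean of 0.046 ± 0.087 stood beside a turned value of -0.33. The arrays of couple 4 lay on opposite sides of 0 and nearly cancelled. SEC11A had -0.15 ± 0.14 (turned -0.20), and 1 array, the dye 5 array of couple 4 at -1.21, lay apart from the other 7, which ran from -0.10 to 0.13. TMED3, a p24 cargo receptor between the endoplasmic reticulum and the Golgi, read 1.00, 0.91, 0.82 and -0.062 with high energy in dye 5 and -0.40, -0.068 and 0.22 in couples 2 to 4 with the dyes swapped. Its 3 highest arrays were thus all dye 5 arrays, and its mean of 0.23 ± 0.11 in 3 couples was smaller than its turned value of 0.32. The 1.00 of couple 1 came from 1 spot, had no swapped partner and entered neither of these values. TMED1, of the same family, had couple values of -0.071, 0.020, -0.059 and -0.020 and a mean of -0.026 ± 0.080 (turned 0.0053), with a 95% interval from 0.85-fold to 1.13-fold, and TMED2 was not tested.

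**Figure D3:**
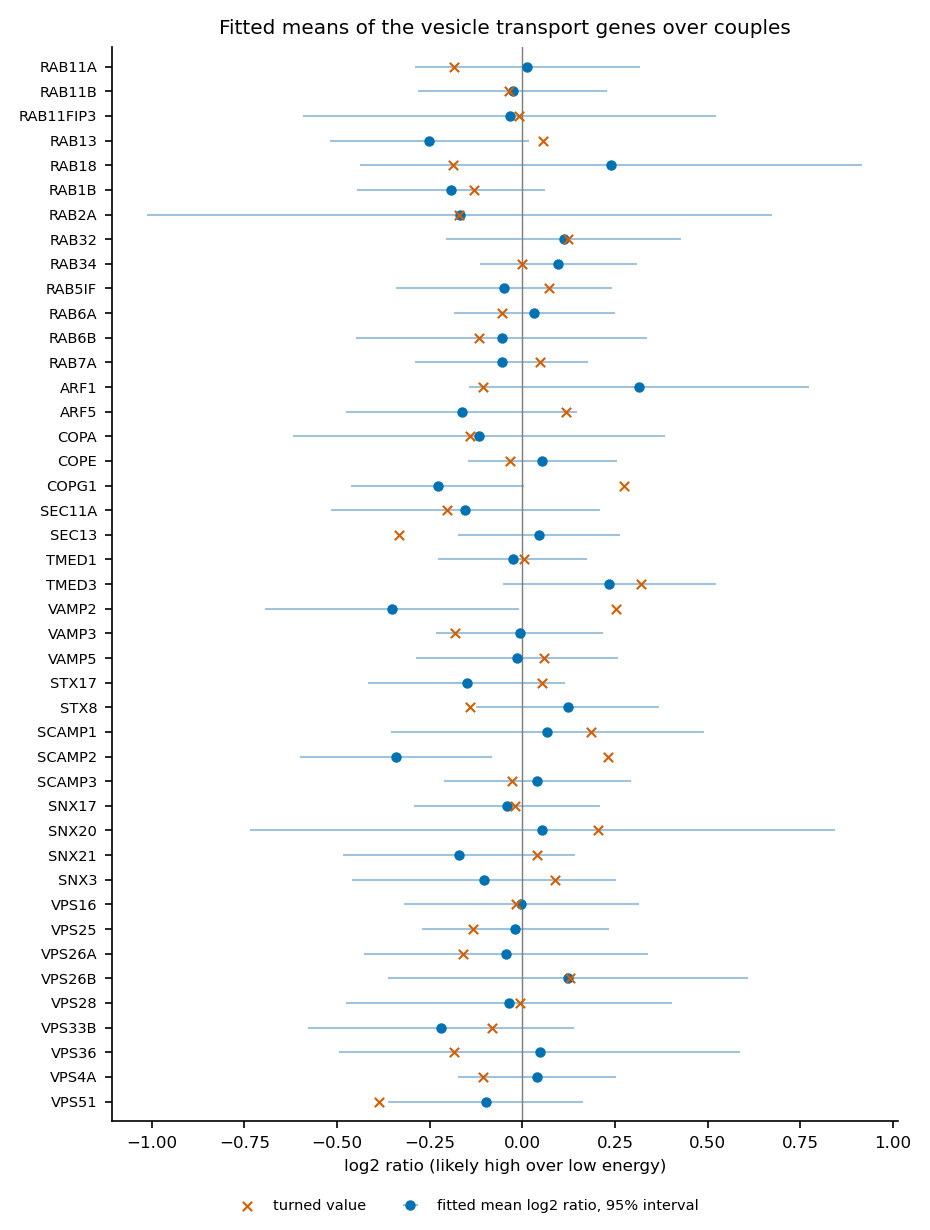
Fitted mean log2 ratio over couples (x axis, points, with limma's 95% interval as bars) and turned value (crosses) of the 43 tested genes (y axis). The intervals of VAMP2 and SCAMP2 alone lie wholly below 0, before any adjustment, and the turned values of SEC13 and VPS51 are larger in size than their means.

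Of 13 tested genes with the RAB prefix, 5 were above 0 and 8 below, with a median of -0.035 (turned 4 above, 9 below and -0.037). RAB13, a Rab of cell junctions and surface delivery, was the lowest. It read -0.11, 0.18, -0.017 and -0.75 with high energy in dye 5 and 0.065, -0.65, -0.45 and -0.12 with the dyes swapped, below 0 on 6 of 8 arrays. Its couple values of -0.021, -0.24, -0.23 and -0.43 gave -0.25 ± 0.11 (turned 0.057, adjusted p = 0.996 in limma). Its spots had means of -0.23 and -0.26 over arrays, but a median gap of 0.41 on the same array. In couple 1 they had opposite signs, -0.42 and 0.20 with high energy in dye 5 and 0.47 and -0.34 with the dyes swapped. RAB1B, which acts between the endoplasmic reticulum and the Golgi, was also below 0 in every couple at -0.16, -0.12, -0.035 and -0.39, yet the arrays of each couple had opposite signs. Its mean was -0.19 ± 0.10 (turned -0.13), and its lowest array was the dye 5 array of couple 4 at -1.05. RAB34 was above 0 in every couple, with values of 0.056, 0.16, 0.15 and 0.026, a mean of 0.096 ± 0.085 (turned -0.0020) and 7 of 8 arrays above 0.

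Genes below 0 in all 4 couples were RAB13, RAB1B, COPG1, VAMP2 and SCAMP2, 5 of the 34 measured in 4 couples or 14.7%, against 9.12% of features. Those above 0 in all 4 couples were RAB34 and COPE, or 5.88%, against 7.47%. None of these 7 kept 1 sign over all couples when turned. Turned, the genes below 0 in all 4 couples were SEC13 and VPS4A, or 5.88% against 8.08% of features, and those above 0 were STX17 and SCAMP1, or 5.88% against 6.65%.

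The remaining Rabs are best described by their spread. RAB18, a Rab of lipid droplets and the endoplasmic reticulum, had the highest mean of the prefix at 0.24 ± 0.25 in 3 couples (turned -0.19), but its couples were 0.13, 0.90 and -0.32, and without couple 2 the mean was -0.092. Each array of couple 2 had only 1 spot of RAB18 measured, not the same one on both. RAB11FIP3, an effector that binds RAB11 on recycling endosomes, read 0.24, -0.038, -0.84 and 0.29 with high energy in dye 5 and -0.26, 1.29, 0.29 and -1.40 with the dyes swapped. No couple's arrays agreed in sign, and its mean was -0.035 ± 0.22 (turned -0.0088). RAB11A and RAB11B, the Rabs it binds, had 0.014 ± 0.12 (turned -0.19) and -0.026 ± 0.10 (turned -0.037). RAB7A, the Rab of late endosomes, had -0.056 ± 0.094 (turned 0.048) with couple values of -0.040, 0.014, -0.22 and -0.026, and RAB6A, a Golgi Rab, 0.033 ± 0.087 (turned -0.054). RAB6B, its relative, had -0.056 ± 0.15 (turned -0.12), RAB2A, of the early secretory pathway, -0.17 ± 0.32 (turned -0.17) and RAB32, of lysosome-related organelles, 0.11 ± 0.12 (turned 0.12), each in 3 couples. RAB5IF had -0.050 ± 0.12 (turned 0.071) in 4. RAB40B was measured in both orientations in couple 2 alone and was not tested.

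Sorting nexins bind phosphoinositides on endosomes, and 4 of 6 could be tested, 1 above 0 and 3 below (turned 3 and 1). SNX20 had the largest range between couples of all members, 1.30: its couples were -0.15, -0.13, 1.03 and -0.27, and its dye 5 array of couple 3 stood at 1.88 against 0.18 after the swap. The mean was 0.054 ± 0.32 (turned 0.20) and -0.18 without couple 3. SNX3, which works with the retromer, had -0.10 ± 0.14 (turned 0.087) with couples 1 to 4 at 0.099, 0.038, 0.12 and -0.53, and 0.078 without couple 4. SNX21 had -0.17 ± 0.13 (turned 0.038), and its 4 spots had means of -0.22, -0.28, -0.13 and 0.18 over arrays. SNX17, which returns receptors from endosomes to the surface, had -0.041 ± 0.10 (turned -0.020). SNX5 was measured on 5 arrays and SNX9 on 4, each with both orientations in couple 1 alone. A couple lay outside Dixon's critical value, a limit for 1 value far from the rest, in 4 of 34 members or 11.8%, among them SNX20 and SNX3, against 7.39% of features.

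The 7 genes that could not be tested had few measured arrays, and their values lay on both sides of 0 in each. COPB1, the beta subunit of COPI, lay between -0.11 and 0.30 on 4 arrays. COPZ1, its zeta subunit, lay between -0.31 and 0.47 on 3 arrays. TMED2, a p24 cargo receptor, lay between -0.34 and 0.39 on 5 arrays. RAB40B lay between -0.44 and 0.25 on 5 arrays. STX7 lay between -0.41 and 0.17 on 6 arrays. SNX5, a partner of the retromer, lay between -0.51 and 0.32 on 5 arrays. SNX9, which helps pinch off clathrin-coated vesicles, lay between -0.70 and 0.18 on 4 arrays.

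All 9 VPS genes were tested, 3 above 0 and 6 below, with a median of -0.019 (turned 1 above, 8 below and -0.11). VPS33B, which tethers late endosomal membranes, was the lowest at -0.22 ± 0.14 (turned -0.083); both arrays of couple 4 read -0.63, while the other couples had 0.072, -0.16 and 0.0045. Without couple 4 its mean was -0.045. VPS16, a core subunit of related tethering complexes, had -0.0028 ± 0.12 in 3 couples (turned -0.018). The retromer subunits VPS26A and VPS26B had -0.044 ± 0.15 and 0.12 ± 0.19 (turned -0.16 and 0.13), and couple 3 put them on opposite sides at -0.33 and 0.67. Of the ESCRT genes, which bud vesicles into endosomes, VPS25 had -0.019 ± 0.10 (turned -0.13), VPS36 0.046 ± 0.22 (turned -0.18) and VPS28 -0.037 ± 0.17 (turned -0.0069) in 3 couples. The ATPase VPS4A, which takes the complex apart, had 0.039 ± 0.086 (turned -0.11). VPS51, of a tether for vesicles that return to the Golgi, had the largest turned value of the members, -0.39, beside a mean of -0.099 ± 0.11. Its couple 2 arrays read -1.53 and 0.86, both from the same 1 spot.

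How well the members repeat can be read at 3 levels. The median gap between both spots of a gene on 1 array was 0.29, between the swapped arrays of a couple 0.26, and between couples, each the mean of 2 arrays, 0.18; over all genes with 2 spots these gaps were 0.27, 0.26 and 0.19. Swapped arrays had the same sign in 72 of 163 pairs, or 44.2%, against 4243 of 8487 pairs over those genes. Of the 43 genes, 20 had first and second spots whose means over arrays differed in sign. That count was not made over all genes, so it cannot be called particular to these. The median size of a turned value was 0.12 and that of a mean 0.068, while over all features they were 0.092 and 0.090. The turned value was larger in size than the mean for 24 of the 43 genes, or 55.8%, against 50.4% of features. In limma, 0 of the 43 turned values had an unadjusted p under 0.05, against 2.65% of features.

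Spots of the brighter genes lay closer together. Many deposited values equal the logarithm of a ratio of whole numbers, and the larger number in lowest terms, called the recovered signal, gives a minimum for how bright such a spot was. The median recovered signal of a member ran from 68 for VPS36 to 3672 for SNX3. For the 10 members at 1000 or more, a limit set after the values were seen, the median gap between spots was 0.15, against 0.41 for the other 33. Those 10 were RAB11B, RAB7A, ARF5, COPE, SEC11A, SEC13, TMED1, VAMP5, SNX17 and SNX3, and their means lay between -0.16 and 0.054. VAMP2, SCAMP2, COPG1, RAB13 and ARF1 were all among the dimmer ones, with recovered signals of 359, 635, 242.5, 446 and 369. The same split over all genes gave gaps of 0.14 for 509 bright genes and 0.36 for 1766 others. Between couples, the median range was 0.34 for the 10 bright members and 0.39 for the other 33, against 0.22 and 0.47 over all genes.

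Couples differed in how much they added. The median of the tested genes measured in a couple (40, 43, 40 and 40) was -0.0094, -0.021, -0.045 and -0.082 in couples 1 to 4, against -0.0056, -3.3e-04, -0.0025 and -0.026 over all features. In couple 4, 25 of 40 members, or 62.5%, were below 0, against 54.6% of features. Of the 34 members on 8 arrays, 11 had the value farthest from 0 on the dye 3 array of couple 4, 8 of them below 0. That is 32.4%, against 19.7% of features. Those 8 were VAMP2, SCAMP2, COPG1, ARF5, SNX3, SNX21, RAB11FIP3 and VPS33B. With couple 4 from its dye 5 array alone, the means were -0.063 for SNX21, 0.0012 for SNX3, 0.22 for RAB11FIP3 and -0.22 for VPS33B.

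**Figure D4:**
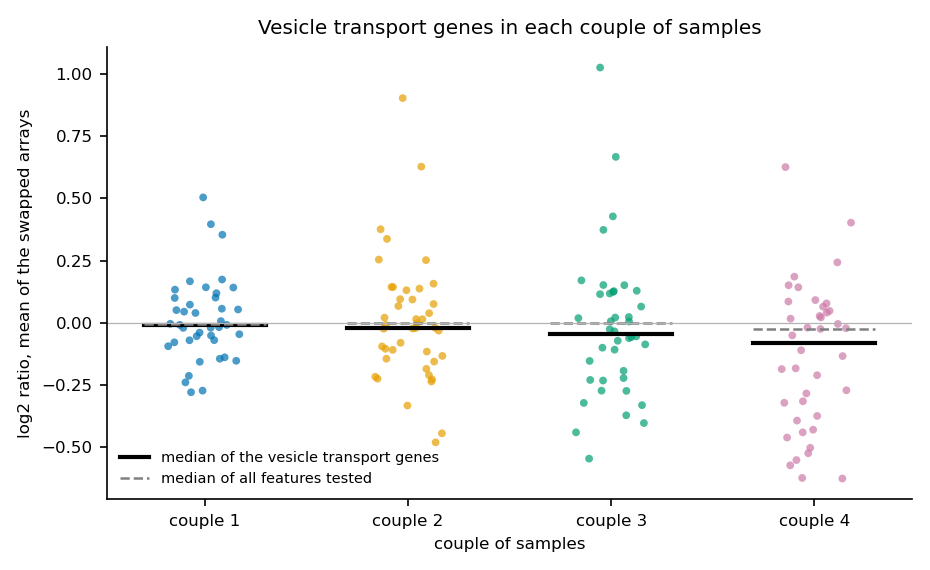
Log2 ratio of each tested gene in each couple (points; mean of the swapped arrays), with the median of the vesicle transport genes (black line) and of all features tested (grey dashed line). The black lines go from -0.0094 in couple 1 to -0.082 in couple 4, and the points of every couple lie on both sides of 0.

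Other genes of the same machinery also lay on both sides of 0. The related genes and markers named here were picked after their values were seen. Of 151 listed genes outside the naming rule, 51 were on the array and 45 were tested, 22 above 0 and 23 below, with a median of -0.0023 (turned 26, 19 and 0.012). None passed the adjusted threshold in limma, and ARCN1 and BET1L had an unadjusted p under 0.05, or 4.44% against 3.78% of features. BET1L, a Golgi SNARE, had -0.40 ± 0.11 in 3 couples (turned 0.044) with couple values of -0.35, -0.30 and -0.55. Among SNARE partners and regulators 2 of 5 were above 0 (turned 5 of 5): SNAP23, a partner of surface syntaxins, at 0.020 ± 0.17 (turned 0.015) and the Golgi SNARE YKT6 at 0.033 ± 0.087 (turned 0.085). NAPA, the adaptor that helps take SNARE complexes apart, had -0.15 ± 0.12 (turned 0.096) in 3 couples. Clathrin and adaptor genes were above 0 for 9 of 10, against 46.4% of all features, with a median of 0.057 (turned 6 of 10 and 0.0066), and none had an unadjusted p under 0.05. Of these, AP2B1 at 0.13 ± 0.084 (turned 0.063) and AP2S1 at 0.17 ± 0.093 (turned 0.061), both subunits of the adaptor for uptake at the surface, were above 0 on all 8 arrays, as were 0.797% of features on 8 arrays. Golgi and endoplasmic reticulum tethers and receptors were below 0 for 6 of 8 (turned 4), Arf relatives and regulators for 5 of 8 (turned 2), endosome sorting genes for 3 of 4 (turned 2), Rab regulators for 2 of 2 (turned 2) and exocyst genes for 1 of 3 (turned 0). Among genes of the glucose transporter's storage vesicles and caveolae 3 of 4 were above 0 (turned 0 of 4), the highest being CAV3, the caveolin of muscle, at 0.70 ± 0.37 (turned -0.20) with couple values of 0.014, 0.26, 0.14 and 1.98.

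All 12 skeletal muscle markers were measured, with means from -0.32 to 0.37, 4 above 0 and 8 below (turned 7 and 5). Of these, 3 had an unadjusted p under 0.05 in limma, or 25%, against the 3.78% of all features: MB at -0.32 ± 0.10 (turned 0.22), MYL1 at 0.37 ± 0.10 (turned -0.036) and TNNT1 at -0.21 ± 0.080 (turned -0.047). None passed the adjusted threshold. Because the markers were picked with their values known, the 25% cannot show that such markers were called more often than other features. For other cell types, the 4 tested adipocyte markers were all below 0, between -0.23 and -0.068 (turned 1 of 4 below 0, -0.29 to 0.17), with couple medians of -0.064, -0.12, 0.031 and -0.25. The 4 blood markers lay between -0.27 and 0.038 (turned 0.029 to 0.17) and the 5 immune markers between -0.34 and 0.25 (turned -0.15 to 0.038). The 3 matrix markers lay between -0.20 and 0.23 (turned -0.31 to 0.044) and the 3 vessel markers between -0.092 and 0.25 (turned -0.16 to 0.15). The nerve marker S100B had 0.37 ± 0.17 in 3 couples (turned -0.15). Ratios do not show whether these cell types were rare or common, and their part in the values of VAMP2, SCAMP2 and the other members was not tested.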

How the data were processed

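The deposited log2 ratios of the channels, 1 per spot and array, were used as given by the authors; the sources used here do not state how background was corrected, spots filtered or ratios normalized. Per the series' design text, cDNA was labelled with Cy3 and Cy5 and read with a ScanArray LITE scanner. Base 2 follows from the numbers themselves: on each array 6.89% to 20.8% were base 2 logarithms of fractions with small denominators, and at most 2.27% were so in other bases. Values were present for 77.6% to 94.4% of 9984 spots per array. Arrays were centred on their medians (-0.0071 to 0.011 as deposited), spots of a symbol averaged, and swapped arrays averaged per couple. Features with both orientations in at least 3 couples were fitted with limma 3.58.1 in R 4.3.3 (lmFit and eBayes, mean against 0, two-sided), blocked by high energy sample (correlation fixed at 0.5), so couples 1 and 3 weigh less, and Benjamini-Hochberg adjustment over 5025 features. Errors are limma's SE, in which the spread of a gene is drawn towards that of all features. COPE, for example, had an SD of 0.036 over couples and an SE of 0.080. The fit was tried on simulated independent values with known changes of 1 and 2 log2 units, without dye effects or a shared sample. Those changes are larger than any member's mean, so the simulation does not cover changes of the size seen here.

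All 50 symbols occur in the pig gene tables. The annotation gives 1 symbol for 6610 spots, several for 106 and none for 3268. Members, related genes and markers were chosen with earlier results of these data known. Genes named with full values were those with an unadjusted p under 0.05, in each prefix the 2 smallest p and the lowest and highest mean, and the 3 widest ranges over couples; others are named with fewer values. Alternatives concerned centring, scale, direction, blocks, dyes, filters, spots and left-out couples. The number of arrays limits the precision. No sequences are printed.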

Additional observations from a re-analysis of the deposited data

Results flagged for a closer look

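In 4 of the 34 genes measured in all couples, 1 couple lay farther from the others than Dixon's critical value for 4 values allows. These genes are 11.8%, and over all features measured in 4 couples the share was 7.39%, or 269 of 3640. The limit is set for about 1 in 20 among independent values of equal spread, which the couples are not. Couples 1 and 3 have a high energy sample in common. The SD of an array's ratios ran from 0.34 to 0.72. It was widest on the dye 5 array of couple 3 (0.72) and the dye 3 array of couple 4 (0.70). SNX20 had 1.03 in couple 3 against -0.27 to -0.13 in the others, from arrays at 1.88 and 0.18. ARF5 had -0.50 in couple 4 against -0.052 to 0.020, from arrays at -0.11 and -0.90. SNX3 had -0.53 in couple 4 against 0.038 to 0.12, from arrays at -0.18 and -0.88. VAMP3 had 0.12 in couple 3 against -0.052 to -0.024, from arrays at -0.054 and 0.30. In each of these couples 1 of the swapped arrays held most of the deviation.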

How the results depend on the processing

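Of 16 alternative settings, 15 were planned and 1, couple 4 from its dye 5 array alone, was chosen after the data were seen. The count of genes past the adjusted threshold was 0 in all 16, and the smallest adjusted p of a named gene was 0.677. The count with an unadjusted p under 0.05 was 2, and it was 4 with couples taken as independent, 1 with dye 5 arrays only (TMED3), 1 with no filter (SCAMP2), 0 turned and 0 with couple 4 from its dye 5 array alone. It was 3 (VAMP2, SCAMP2 and COPG1) with dye 3 arrays only, with arrays scaled to one spread and among genes measured on all 8 arrays. It was also 3 with couples 1 and 3 averaged (VAMP2, SCAMP2 and RAB13) and in the fit of all 8 arrays (VAMP2, SCAMP2 and STX17). Leaving out 1 couple gave 0 to 4. Over all features this count was 190 of 5025, and 310 with couples independent, 99 with dye 5 arrays only, 184 of 6279 with no filter and 133 turned. It was 210 with dye 3 arrays only, 188 with arrays scaled to one spread and 150 of the 3640 features on all 8 arrays. With couples 1 and 3 averaged it was 279, and in the fit of all 8 arrays 353. Among features it was 177 with couple 4 from its dye 5 array alone and 107 to 284 with 1 couple left out. With dye 5 arrays only, TMED3 included its value from 1 spot in couple 1. The count above 0 (16) ran from 11 to 22 over all settings, the 11 among the 34 genes on 8 arrays. The median (-0.026) stayed below 0 and moved by less than 0.032, the SD of the couples' medians, but it was -0.052 without couple 1, -0.046 without couple 2, -0.014 without couple 3 and -0.011 without couple 4. No named gene changed sign with ratios as deposited, arrays scaled to one spread, couples 1 and 3 averaged, a median over spots, no filter or, for those it keeps, genes measured on all 8 arrays. VAMP3 changed to 0.00023 with couples independent and in the fit of all 8 arrays. Turned, 15 of the 25 named genes changed sign: 0.057 for RAB13, -0.19 for RAB18, -0.11 for ARF1, 0.12 for ARF5, -0.032 for COPE, 0.27 for COPG1, -0.33 for SEC13, 0.0053 for TMED1, 0.25 for VAMP2, 0.058 for VAMP5, 0.053 for STX17, -0.14 for STX8, 0.23 for SCAMP2, 0.038 for SNX21 and 0.087 for SNX3. With dye 3 arrays only, the means were 0.051 for SEC11A, -0.085 for TMED3, 0.17 for VAMP3, -0.12 for SCAMP1, -0.15 for SNX20, -0.0067 for VPS26B and 0.29 for VPS51. With dye 5 arrays only they were 0.045 for COPG1, -0.29 for SEC13, 0.044 for VAMP5 and -0.038 for STX8. With couple 4 from its dye 5 array alone they were 0.22 for RAB11FIP3, -0.21 for SEC13, 0.012 for VAMP5, -0.080 for STX8 and 0.0012 for SNX3. Leaving out 1 couple turned the sign of 10 named genes, whose means then ranged as follows: RAB11FIP3 -0.32 to 0.19, RAB18 -0.092 to 0.52, SEC11A -0.23 to 0.027, VAMP3 -0.041 to 0.016, VAMP5 -0.070 to 0.037, SCAMP1 -0.039 to 0.17, SNX20 -0.18 to 0.21, SNX3 -0.16 to 0.078, VPS26B -0.014 to 0.22 and VPS51 -0.15 to 0.0014. Each ratio compares both diets on 1 array, so the fits were already paired by couple. The cause of these changes was not tested. The number of couples and the spread between spots limit what can be seen here.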
